A study of Homo sapiens with 21 samples.

Results

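The genes described here encode 10 receptor tyrosine kinases: the PDGF receptors PDGFRA and PDGFRB and their relative KIT, the FGF receptors FGFR1 and FGFR2, the neurotrophin receptors NTRK2 and NTRK3, and the receptors AXL, MET and IGF1R. They were found by matching the gene identifiers of a count table, with the version removed, to these symbols, and all 10 were present among 42339 identifiers. The set was chosen by the change in NTRK3 upon MYC silencing, which was one of the largest rises there, with the other receptors added by family. The values of the MYC-silenced cells and their control are therefore given below as a description, with no p-value and no reading of counts past a threshold. Each gene is followed across 7 groups and 4 comparisons.

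Receptor tyrosine kinases are membrane proteins that bind a ligand outside the cell, pair up and phosphorylate each other on tyrosines inside it. Adaptor proteins dock on these phosphotyrosines and pass the signal to the RAS-MAPK, PI3K-AKT and phospholipase C pathways, which drive growth, survival and movement. In breast cancer cells of mesenchymal character, AXL, MET and FGFR1 are familiar members, whereas PDGF receptors mark fibroblasts and pericytes and the neurotrophin receptors TrkB (NTRK2) and TrkC (NTRK3) are best known from neurons.

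RNA-seq was performed on 21 cultures of BT-549, a human triple-negative breast cancer (TNBC) cell line with wild-type BRCA1, 3 per group. Parental cells were grown as monolayers (2D) in serum-containing medium with insulin, as mammospheres (3D, passage 6) in MammoCult medium on low-attachment plates, or as passage 6 mammospheres treated with 0.75 µmol/L GO-203, a cell-penetrating peptide inhibitor of MUC1-C, the transmembrane C-terminal subunit of mucin 1. Mammospheres of the BT-549/tet-MUC1shRNA (passage 6) and BT-549/tet-MYCshRNA (passage 8) lines, each carrying 1 doxycycline-inducible shRNA, were treated with 0.1% DMSO as vehicle or with 500 ng/ml doxycycline (DOX). All data thus come from 1 line, each gene was silenced with 1 shRNA, DOX was present only in the silenced groups, medium and growth format changed together between 2D and 3D cells, and passage differed between the shRNA lines, so that these factors cannot be told apart from the groups.

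Library totals ran from 38026597 to 99751717 counts (median 53548353). MUC1 averaged 89.4 CPM (counts scaled to a common library size) in tet-MUC1shRNA 3D cells with vehicle and 21.6 CPM with DOX, and MYC averaged 418 CPM in tet-MYCshRNA 3D cells with vehicle and 275 CPM with DOX, with no overlap between libraries in either case. MUC1 in turn was 69.4 CPM with vehicle and 168 CPM with DOX in the tet-MYCshRNA cells, and MYC was 242 CPM with vehicle and 290 CPM with DOX in the tet-MUC1shRNA cells. The tissue is labelled as epithelial breast, but the epithelial markers EPCAM (at most 0.122 CPM), KRT19 (at most 0.106 CPM), CDH1 (at most 1.55 CPM), KRT8 (at most 1.54 CPM) and KRT18 (at most 0.997 CPM) were at or near 0 in every library, whereas the mesenchymal markers VIM (1070 to 2510 CPM), FN1 (452 to 13500 CPM) and CDH2 (11.1 to 466 CPM) were present in all. The hormone receptors ESR1 (at most 1.49 CPM) and PGR (at most 0.0706 CPM) were also near 0, whereas ERBB2 RNA was present in all libraries (18.2 to 42.3 CPM).

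The DNA at the start of 2 receptor genes is shown, NTRK3 because its level ranged most widely between groups and MET because its window held the motif searched for. A 300-base window around the RefSeq start sites, 250 bases before and 50 after, was available for 9 of the 10 receptors, in 18 windows (GRCh38.p14). These were searched on both strands for CACGTG, the palindromic E-box that MYC-MAX dimers are known to bind. The MET window, on chr7, held it, with its first base 3 bases after the start site, and this was 1 of the 18 windows. Over all RefSeq promoter windows of that length, 7.26% (2548 of 35116) held CACGTG. In the lines below, the first is the 198 bases immediately before the annotated NTRK3 gene (chr15:88256792-88256989, minus strand), in which CACGTG does not occur, and the second is 30 bases around the MET match (chr7:116672187-116672216, plus strand), with CACGTG in capitals.
NTRK3: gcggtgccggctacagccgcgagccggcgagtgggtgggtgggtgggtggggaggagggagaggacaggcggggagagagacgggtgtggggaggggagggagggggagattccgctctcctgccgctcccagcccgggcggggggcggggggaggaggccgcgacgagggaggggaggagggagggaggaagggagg
MET: gaggcagacagaCACGTGctggggcgggca
A match is a run of letters and was not measured as a binding site. No binding data were analysed here.

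To compare receptors with each other, levels were divided by the annotated exon length of each gene (CPM per kilobase). This length merges the exons of all annotated transcripts, from 5134 bases for AXL to 26773 for NTRK3 and 33162 for NTRK2. It can exceed the length of the expressed form and so lower the value, most for genes with many forms. On this scale the summed level of the 10 receptors was 63.7 ± 3.11 CPM per kilobase (SD, n = 3) in 2D cells. Mammospheres had 44.1 ± 1.03 without and 38.4 ± 1.66 with GO-203. In the tet-MUC1shRNA 3D cells the sum was 74.1 ± 3.40 with vehicle and 75.8 ± 2.33 with DOX, and in the tet-MYCshRNA 3D cells it was 90.6 ± 2.14 with vehicle and 71.1 ± 6.33 with DOX. AXL, MET and FGFR1 held the first 3 places in every group. Fibroblast-type and neural receptors were minor components of the summed level per length in every group. PDGFRA, the highest of the PDGF receptors, reached 0.753 ± 0.0122 CPM per kilobase and NTRK3 reached 1.49 ± 0.0522 in their highest groups. AXL was the highest in 2D cells (28.9 ± 2.05 CPM per kilobase), in 3D cells (21.6 ± 0.845), in GO-203-treated cells (19.7 ± 1.03) and in tet-MUC1shRNA cells with vehicle (31.0 ± 2.03). In the last group MET was close behind at 29.9 ± 1.11, within the spread of the replicates. MET was the highest in tet-MUC1shRNA cells with DOX (44.5 ± 1.75) and in tet-MYCshRNA cells with vehicle (39.8 ± 0.714) or DOX (28 ± 1.06).

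**Figure D1:**
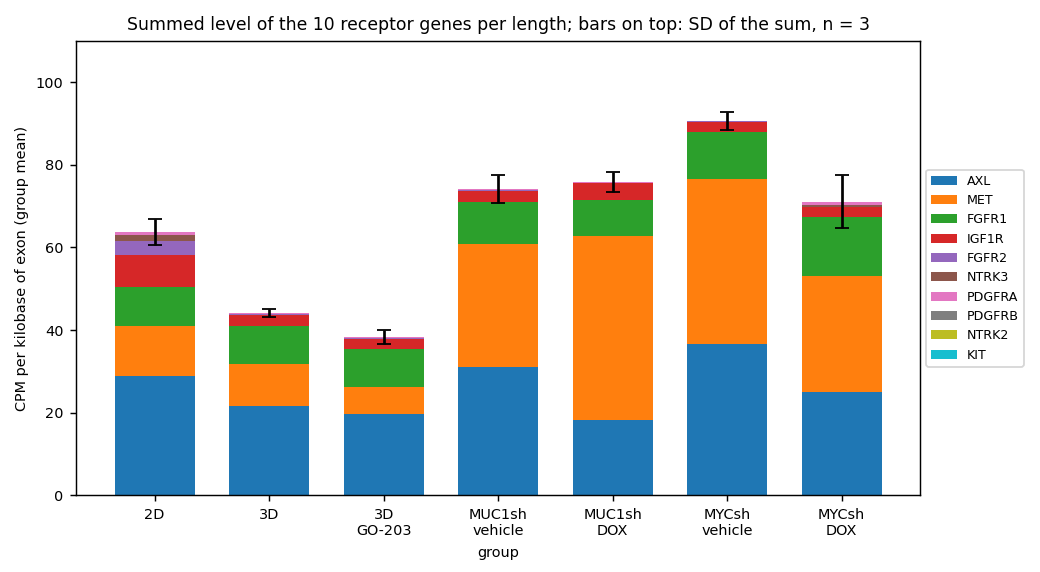
Stacked bars of the group mean level of each of the 10 receptor genes in CPM per kilobase of exon (linear axis from 0), with the SD of the summed level over 3 libraries per group. AXL, MET and FGFR1 fill most of every bar, from a sum of 38.4 in GO-203-treated 3D cells to 90.6 in tet-MYCshRNA 3D cells with vehicle.

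NTRK3, the receptor for neurotrophin-3, had the widest range. Its 3 libraries stood at 39.4, 38.9 and 41.5 CPM in 2D cells and at 0.772, 0.712 and 0.362 CPM in 3D cells. With GO-203 they stood at 1.26, 1.23 and 1.01 CPM. All 2D libraries were thus far above all 3D libraries, and the GO-203 libraries were above the control 3D libraries. In tet-MUC1shRNA 3D cells NTRK3 was counted 0, 2 and 4 times with vehicle and 10, 13 and 12 times with DOX (0.181, 0.185 and 0.270 CPM). In tet-MYCshRNA 3D cells it was counted 6, 10 and 9 times with vehicle (0.0811, 0.100 and 0.145 CPM) and 517, 578 and 730 times with DOX (10.2, 10.0 and 11.8 CPM). The MYC-silenced cells therefore came second to the 2D cells, and no library of any group overlapped the groups next to it in this order. The 2D mean was 964 times the mean in tet-MUC1shRNA cells with vehicle, a ratio whose lower term rests on 6 counts. The gene lies at chr15:87859751-88256791 (GRCh38, minus strand). Counts per gene do not separate full-length TrkC from the forms without a kinase domain, and the same holds for NTRK2.

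NTRK2, the BDNF receptor, was counted at most 12 times in each library outside the MYC-silenced cells. In those cells it reached 18, 40 and 30 counts (0.356, 0.694 and 0.484 CPM), above every library with vehicle (0, 10 and 8 counts).

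PDGFRA, the receptor that binds PDGF-AA and PDGF-CC, stood at 5.20, 7.71 and 7.39 CPM in 2D cells and at 2.3, 2.19 and 1.7 CPM in 3D cells. With GO-203 it stood at 1.81, 1.90 and 2.29 CPM, within the spread of the control 3D cells. In tet-MUC1shRNA 3D cells it was 3.19, 1.75 and 3.06 CPM with vehicle and 1.18, 1.11 and 1.80 CPM with DOX, so that vehicle replicate 2 fell just below the highest DOX library. In tet-MYCshRNA 3D cells it was 0.771, 0.880 and 0.985 CPM with vehicle and 7.06, 7.23 and 7.28 CPM with DOX, with no overlap. The MYC-silenced and 2D groups, the highest, overlapped each other, and the tet-MYCshRNA vehicle group was the lowest, with the highest mean 8.19 times its own. PDGFRA lies at chr4:54229280-54298245 (plus strand), and 16.06% of its exon bases are shared on the same strand with another annotated gene (ENSG00000282278), so reads there may have been assigned to either or to neither.

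PDGFRB, the main PDGF-BB receptor, did not pass 0.465 CPM in any library. Its highest values were 0.363, 0.373 and 0.465 CPM in tet-MUC1shRNA cells with vehicle, and its lowest were in tet-MYCshRNA cells with vehicle, at 8, 6 and 2 counts. KIT, the stem cell factor receptor of mast cells, melanocytes and germ cells, had at most 2 counts in any library and was at 0 in all 2D, 3D, tet-MUC1shRNA vehicle and MYC-silenced libraries. A count of 0 allows up to 3 counts in a library, or 0.0684 CPM in the shallowest 2D library, by counting error alone. Its ligand KITLG was present in all groups, from 14.8 ± 0.321 CPM in tet-MYCshRNA cells with vehicle to 123 ± 4.90 CPM in 2D cells.

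FGFR1 had the narrowest range of the receptors above 1 CPM. Its libraries stood at 159, 168 and 155 CPM in 2D cells, 162, 152 and 152 CPM in 3D cells and 162, 158 and 154 CPM with GO-203, and these groups overlapped. In the tet-MYCshRNA 3D cells it was 209, 197 and 187 CPM with vehicle and 206, 275 and 258 CPM with DOX, and the highest group mean was 1.64 times the lowest. FGFR2 behaved differently, with 64.0, 60.2 and 59.2 CPM in 2D cells and 5.18, 4.68 and 4.88 CPM in 3D cells. It was lower still in both shRNA lines, at 2.41 ± 0.390 CPM in tet-MUC1shRNA and 1.40 ± 0.227 CPM in tet-MYCshRNA cells with vehicle (SD, n = 3). FGFR2 therefore ranged 54.6-fold between group means and was abundant only in the 2D group among the 7. The FGFR1 exons share 3.05% of their bases with genes on the opposite strand.

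AXL, the receptor for GAS6, stood at 160, 144 and 141 CPM in 2D cells and at 114, 112 and 106 CPM in 3D cells. In tet-MUC1shRNA 3D cells it was 171, 154 and 152 CPM with vehicle and 93.3, 95.8 and 92.7 CPM with DOX. In tet-MYCshRNA 3D cells it was 199, 191 and 176 CPM with vehicle and 110, 140 and 137 CPM with DOX. AXL was thus lower in every DOX library than in every vehicle library of the same line, within a range of 2.00-fold over all group means.

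MET, the hepatocyte growth factor receptor, stood at 97.0, 84.4 and 83.0 CPM in 2D cells, at 74.0, 72.7 and 77 CPM in 3D cells and at 46.7, 42.9 and 50.8 CPM with GO-203. In tet-MUC1shRNA 3D cells it was 220, 206 and 221 CPM with vehicle and 332, 324 and 307 CPM with DOX. In tet-MYCshRNA 3D cells it was 283, 287 and 293 CPM with vehicle and 194, 205 and 208 CPM with DOX. The order of vehicle and DOX libraries was thus opposite in the shRNA lines, with no overlap in either. All libraries of both lines were also above all libraries of the parental cells, and the highest group mean was 6.86 times the lowest. The tet-MUC1shRNA cells and the parental 3D cells were both at passage 6. Transduction, selection and the DMSO vehicle cannot be told apart there.

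IGF1R, the IGF-1 receptor, stood at 110, 105 and 111 CPM in 2D cells and at 36.1, 41.8 and 33.2 CPM in 3D cells. It was 37.3, 37.9 and 40.1 CPM in tet-MUC1shRNA 3D cells with vehicle and 56.0, 53.7 and 55.2 CPM with DOX. In tet-MYCshRNA 3D cells it was 33.0, 34.5 and 33.1 CPM with vehicle and 33.0, 35 and 33.4 CPM with DOX. The 2D group was the highest, MUC1-silenced cells came next, and the other 5 groups overlapped with their neighbours in this order.

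**Figure D2:**
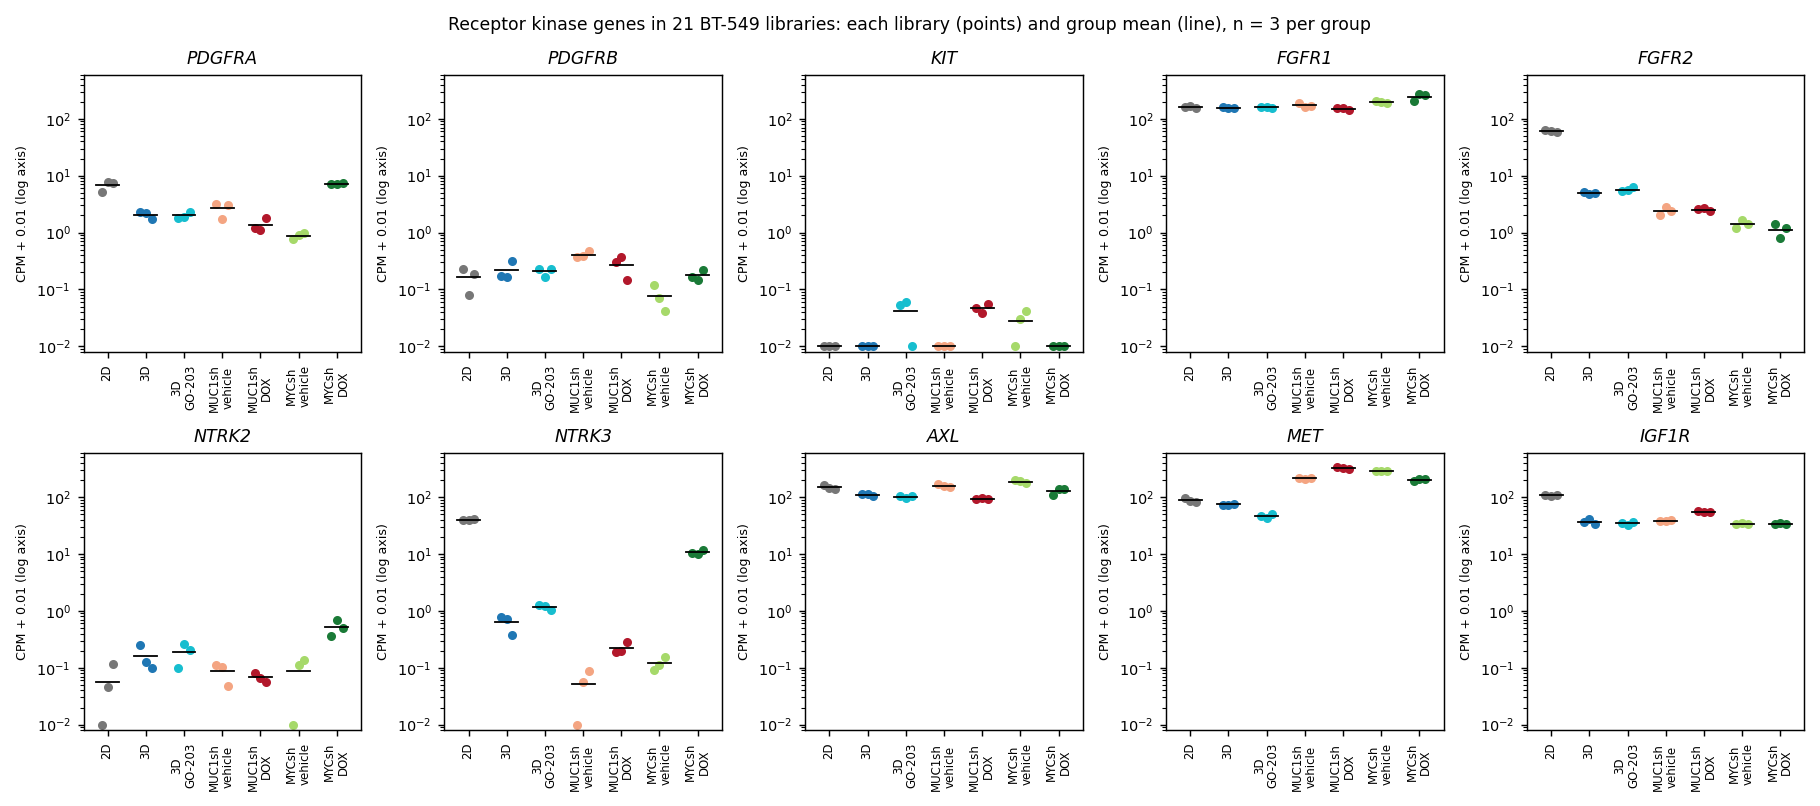
CPM of each of the 10 receptor genes (log axis, 0.01 added so that libraries at 0 can be drawn) in each of the 21 libraries, in 7 groups of 3, with the group mean as a line. NTRK3 is high in 2D cells (39.9 CPM) and MYC-silenced cells (10.7 CPM) and at most 1.26 CPM in every other library, whereas FGFR1 stays between 141 and 275 CPM in all libraries.

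The comparison of 3D with 2D cells addresses how mammosphere culture changes expression. Of the receptors, NTRK3, FGFR2, PDGFRA and IGF1R were markedly lower in 3D cells, AXL and MET were slightly lower, and FGFR1 differed by less than its spread. With edgeR's quasi-likelihood test (Benjamini-Hochberg adjusted over 19190 genes), NTRK3 was downregulated by a log2 fold change of -6.01 ± 0.15 (SE; adjusted p = 7e-15), from 39.9 ± 1.40 to 0.615 ± 0.222 CPM (SD, n = 3). FGFR2 fell by 3.58 ± 0.08 on the log2 scale (adjusted p = 1.2e-15) and PDGFRA by 1.67 ± 0.18 (adjusted p = 6.6e-07). IGF1R fell by 1.5 ± 0.08 (edgeR, adjusted p = 6.2e-11) and AXL by 0.37 ± 0.07 (adjusted p = 0.00014). These changes went in the same direction in 3 of 3 libraries against all controls. MET fell by 0.19 ± 0.07 (edgeR, adjusted p = 0.032), and this call was lost without 2D replicate 1 (log2 fold change -0.10, adjusted p = 0.21), 3D replicate 1 (-0.15, adjusted p = 0.13) or 3D replicate 2 (-0.15, adjusted p = 0.15). For FGFR1 the log2 fold change was 0.01 ± 0.06 (edgeR, adjusted p = 0.93).

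Thus 6 of the 7 receptors tested passed an adjusted p of 0.1, all of them downregulated, whereas 63.7% of all genes tested passed, 32% up and 31.7% down. Past a log2 fold change of -1.5 as well were 4 of the 7, against 9.29% of all genes. Of these, IGF1R lay at the threshold itself, at -1.49 with DESeq2 and between -1.58 and -1.42 with 1 library left out, and it was above -1.5 without 2D replicate 1 (-1.48) or 3 (-1.49) or 3D replicate 1 (-1.45) or 3 (-1.42), which leaves 3. None was past 1.5 upward, where 6.9% of all genes were. The share of all genes is not the only yardstick, because the set was chosen through a rise upon MYC silencing. Of the 1408 genes past 1.5 upward there, 397 (28.2%) were past -1.5 in 3D vs. 2D cells, NTRK3 and PDGFRA among them. For the same 6 the groups did not overlap, against 64.1% of all genes. The median log2 fold change of the 7 was -1.5, and of all genes -0.01. PDGFRB, NTRK2 and KIT were counted too rarely to enter the test. Summed over libraries, PDGFRB had 36 counts in 3D and 24 in 2D cells, a depth-adjusted ratio of 1.41 with a 95% exact conditional interval of 0.818 to 2.47. NTRK2 had 24 counts in 3D and 8 in 2D cells, a ratio of 2.82 (1.22 to 7.26), and such intervals cover counting error only. Marker genes also differed between these groups. The summed epithelial markers were 1.78 to 1.99 CPM in 2D and 0.654 to 0.904 CPM in 3D cells. Of the mesenchymal markers, CDH2 averaged 451 CPM in 2D and 50.2 CPM in 3D cells, FN1 460 and 6590 CPM, and VIM 1200 and 1260 CPM. The summed mast cell and melanocyte markers were 9.46 to 12.3 CPM in 2D and 1.94 to 3.50 CPM in 3D cells, led in 2D by CPA3 (5.97 CPM) with TPSAB1 at 0. The summed endothelial markers were 0.0356 to 0.212 CPM in 2D and 5.87 to 7.08 CPM in 3D cells, where PECAM1 led and CDH5 and VWF were at or near 0, and the summed leukocyte markers were 1.06 to 1.72 CPM in 2D and 0.362 to 0.654 CPM in 3D cells. Their part in the receptor results was not tested, and in bulk RNA fewer cells of a type and less RNA per cell cannot be told apart.

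Other genes of these pathways, 69 in 4 lists by role, went in both directions in 3D vs. 2D cells. Of 58 tested, 23 were upregulated and 24 downregulated (edgeR, adjusted p below 0.1, the threshold for every rise or fall given for these lists), with a median log2 fold change of -0.01. Of all genes tested, 32% were upregulated and 31.7% downregulated, with a median of -0.01. Among the ligands, 5 of 15 tested rose and 9 fell. HGF, the ligand of MET, rose from 0.149 ± 0.119 to 3.44 ± 1.04 CPM (log2 fold change 4.54 ± 0.39), and PROS1, a ligand of the AXL relatives TYRO3 and MERTK, rose from 6.23 ± 0.956 to 26.0 ± 1.63 CPM. PDGFD, a PDGFRB ligand, fell from 2.06 ± 0.167 to 0.0964 ± 0.0231 CPM. KITLG fell by 2.01 ± 0.07 on the log2 scale. FGF5 fell by 1.91 ± 0.07, from 121 ± 10.2 to 31.1 ± 1.69 CPM. Neurotrophin-3 itself (NTF3) had 2 counts in all 21 libraries, in 1 group, MUC1-silenced cells, and BDNF was 30.7 ± 3.25 CPM in 2D and 33.3 ± 2.60 CPM in 3D cells.

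Of the related receptors, 4 of 12 tested rose and 6 fell. The insulin receptor INSR, the nearest relative of IGF1R, rose from 27.5 ± 1.59 to 87.9 ± 3.63 CPM (log2 fold change 1.73 ± 0.06), while IGF1R fell. FGFR4 rose by 1.16 ± 0.14 on the log2 scale and NGFR, the low-affinity neurotrophin receptor, by 1.65 ± 0.23. FGFR3 fell from 3.06 ± 0.245 to 0.262 ± 0.108 CPM and FGFRL1, an FGF receptor without a kinase domain, from 229 ± 20.6 to 43.3 ± 2.24 CPM. The ligand-binding proteins rose in 5 of 8 cases and fell in 2. IGFBP4 rose from 43.8 ± 8.02 to 180 ± 9.35 CPM and IGFBP5 from 2.00 ± 0.312 to 4.51 ± 0.373 CPM, and IGFBP7, which has low affinity for IGFs, fell from 35.9 ± 3.02 to 0.434 ± 0.105 CPM. Adaptors and regulators rose in 9 of 23 cases and fell in 7. SHC1, an adaptor used by most of these receptors, rose from 288 ± 29.4 to 1060 ± 36.6 CPM, and SH2B2 and IRS2, adaptors of insulin-type receptors, rose by 1.42 ± 0.17 and 1.36 ± 0.15. Phospholipase PLCG1 fell by 1.34 ± 0.06, GRB10, an adaptor that restrains insulin and IGF receptors, by 1.37 ± 0.07, and LRIG3, a leucine-rich membrane protein, by 1.64 ± 0.06.

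The effect of MUC1 silencing was taken from tet-MUC1shRNA mammospheres, DOX vs. vehicle. Silencing was accompanied by higher MET and IGF1R and lower AXL, PDGFRA and FGFR1. MET was upregulated from 216 ± 8.05 to 321 ± 12.6 CPM (log2 fold change 0.56 ± 0.04, edgeR, adjusted p = 2.8e-10) and IGF1R from 38.5 ± 1.45 to 55.0 ± 1.16 CPM (0.50 ± 0.06, adjusted p = 1.1e-07). AXL was downregulated from 159 ± 10.4 to 93.9 ± 1.65 CPM (log2 fold change -0.77 ± 0.05, edgeR, adjusted p = 2.3e-11). In the summed level per length, the share of MET was 40.3% ± 1.30 with vehicle and 58.7% ± 0.622 with DOX, and that of AXL 41.8% ± 1.22 and 24.2% ± 0.619 (SD, n = 3). MET and AXL were thus within the spread of the replicates with vehicle, and MET was above AXL with DOX. In CPM not divided by length, MET was above AXL already with vehicle. The sum of all 10 per length differed by less than its spread. PDGFRA fell by 0.99 ± 0.25 on the log2 scale (edgeR, adjusted p = 0.0018), although the groups overlapped. FGFR1 fell by 0.21 ± 0.05 (edgeR, adjusted p = 0.0012), and this call was lost when libraries were scaled by their totals alone (log2 fold change -0.04, adjusted p = 0.48), a scaling that moved the median of all genes by 0.17 on the log2 scale.

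These were 5 of 7 receptors tested, 2 upregulated and 3 downregulated, against 62.2% of all 19220 genes tested (30.7% up and 31.6% down). None was past a log2 fold change of 1.5 in either direction, where 5.74% of all genes were higher and 3.08% lower. The groups did not overlap for 5 of the 7, compared with 61.5% of all genes, so neither share stands far from that of all genes. FGFR2 (log2 fold change 0.05 ± 0.18, edgeR, adjusted p = 0.81) and PDGFRB (-0.60 ± 0.45, adjusted p = 0.27) did not pass. NTRK2, NTRK3 and KIT were too rare for the test. NTRK3 had 35 counts with DOX and 6 with vehicle, a ratio of 5.06 with a 95% exact conditional interval of 2.10 to 14.7, and NTRK2 had 10 and 10, a ratio of 0.867 (0.324 to 2.32). The summed epithelial markers were 2.37 to 2.77 CPM with DOX and 0.0519 to 0.140 CPM with vehicle. CDH2 averaged 75.1 CPM with DOX and 11.8 CPM with vehicle, and FN1 7250 and 10200 CPM. The part of these markers in the receptor changes was not tested.

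Of 55 other pathway genes tested upon MUC1 silencing, 17 rose and 26 fell, with a median log2 fold change of -0.06. Of all genes tested, 30.7% rose and 31.6% fell, with a median of 0.02. Among the 14 ligands tested, 5 rose and 5 fell. PDGFC, a PDGFRA ligand, fell from 38.7 ± 2.52 to 12.2 ± 0.897 CPM (log2 fold change -1.67 ± 0.07), and FGF1 rose from 4.94 ± 0.602 to 10.7 ± 0.344 CPM. MST1R, the MET relative RON, rose from 0.0759 ± 0.0286 to 2.71 ± 0.177 CPM (log2 fold change 5.11 ± 0.33), and SORT1, a neurotrophin co-receptor, rose by 1.54 ± 0.08. FGFR4 fell by 2.22 ± 0.17 and NGFR by 1.56 ± 0.23. Related receptors and co-receptors thus rose in 5 of 12 cases and fell in 4. Of 7 ligand-binding proteins, 1 rose and 4 fell. IGFBP3, the main IGF carrier, fell from 527 ± 65.7 to 248 ± 25.2 CPM, IGFBP4 from 251 ± 11.0 to 112 ± 10.3 CPM and IGFBP5 by 1.53 ± 0.18 on the log2 scale, whereas IGFBP7 rose from 0.311 ± 0.120 to 1.73 ± 0.441 CPM. Adaptors and regulators rose in 6 of 22 cases and fell in 13, with IRS2 up from 11.3 ± 1.04 to 23.3 ± 1.27 CPM and SH2B2 down by 1.52 ± 0.15.

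GO-203 was compared with control 3D cells, the same 3D libraries that served against 2D cells. MET was downregulated from 74.6 ± 2.23 to 46.8 ± 3.94 CPM (log2 fold change -0.65 ± 0.06, edgeR, adjusted p = 1.2e-07). NTRK3 was upregulated from 0.615 ± 0.222 to 1.17 ± 0.135 CPM (0.95 ± 0.32, edgeR, adjusted p = 0.042), a call that was lost without 3D replicate 3 (0.66, adjusted p = 0.17), GO-203 replicate 1 (0.88, adjusted p = 0.13) or GO-203 replicate 2 (0.92, adjusted p = 0.11). None of the other 7 receptors tested passed, at 0.24 ± 0.13 for FGFR2 (edgeR, adjusted p = 0.25), -0.11 ± 0.06 for AXL (adjusted p = 0.22), -0.08 ± 0.08 for IGF1R (adjusted p = 0.54), 0.04 ± 0.06 for FGFR1 (adjusted p = 0.72), 0.31 ± 0.63 for NTRK2 (adjusted p = 0.80), -0.06 ± 0.55 for PDGFRB (adjusted p = 0.96) and -0.02 ± 0.21 for PDGFRA (adjusted p = 0.97). The 2 of 9 that passed stand beside 24.1% of all 18488 genes tested (11.1% up and 12.9% down). None was past 1.5 in either direction, as were 0.498% of all genes upward and 0.26% downward. For 4 of the 9 the groups did not overlap, against 34% of all genes.

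Of 55 other pathway genes tested with GO-203, 14 rose and 11 fell, and 30 did not pass, with a median log2 fold change of 0.02. Of all genes tested, 11.1% rose and 12.9% fell, with a median of 0.02. Without GO-203 replicate 1 the number passing was 14 in place of 25. FGF5 fell from 31.1 ± 1.69 to 15.1 ± 1.98 CPM (-1.02 ± 0.08, edgeR, adjusted p = 1.1e-08) and IGFBP5, an IGF-binding protein, from 4.51 ± 0.373 to 2.19 ± 0.399 CPM (-1.01 ± 0.17, adjusted p = 0.00018). Ligands rose in 6 of 14 cases and fell in 2, related receptors rose in 2 of 10 and fell in 2, ligand-binding proteins rose in 1 of 8 and fell in 3, and adaptors rose in 5 of 23 and fell in 4.

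MUC1 silencing and GO-203 are both directed at MUC1, so their effects were compared in one edgeR fit of 12 libraries, a test chosen after the data were seen. MET differed by a log2 difference of 1.22 ± 0.08 between the effects (MUC1 silencing minus GO-203, edgeR, adjusted p = 1.3e-12), being higher upon MUC1 silencing and lower with GO-203. The difference was -0.65 ± 0.08 for AXL (edgeR, adjusted p = 1.5e-07), 0.59 ± 0.10 for IGF1R (adjusted p = 3.1e-05) and -0.97 ± 0.34 for PDGFRA (adjusted p = 0.022). For FGFR1 it was -0.24 ± 0.08 (edgeR, adjusted p = 0.012), and this was lost with library totals alone (-0.09, adjusted p = 0.36). FGFR2 (-0.18 ± 0.20, edgeR, adjusted p = 0.54), NTRK3 (1.21 ± 0.77, adjusted p = 0.23), PDGFRB (-0.55 ± 0.73, adjusted p = 0.61) and NTRK2 (-0.68 ± 1.04, adjusted p = 0.66) did not pass. With 1 library left out, the difference ran from 0.73 to 2.01 for NTRK3, from -0.95 to -0.27 for PDGFRB, from -1.21 to -0.39 for NTRK2 and from -0.27 to -0.05 for FGFR2. The 5 of 9, 2 with a positive and 3 with a negative difference, stand beside 44.9% of 20829 genes, 20.8% positive and 24.1% negative. Cell line, exposure and control treatment differed along with the agent.

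**Figure D3:**
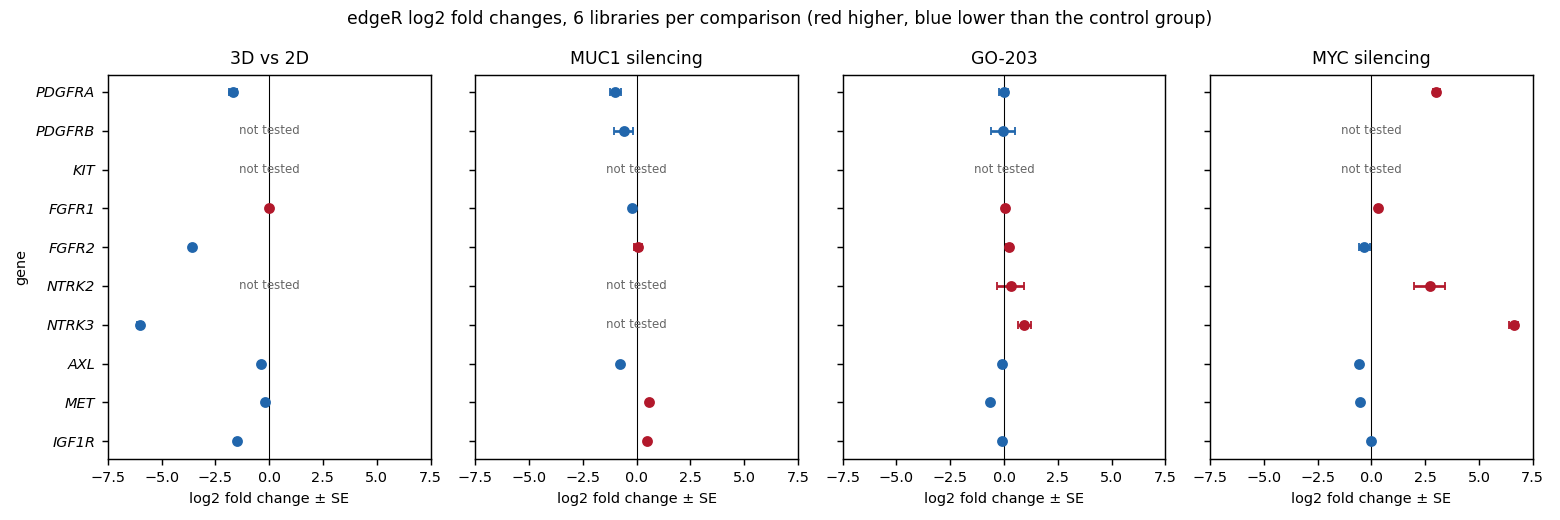
Log2 fold changes with their SE for the 10 receptor genes in the 4 comparisons (6 libraries each, red above 0, blue below, "not tested" where too few counts). NTRK3 lies at -6.01 in 3D vs. 2D cells and at 6.61 upon MYC silencing, and MET lies at 0.56 upon MUC1 silencing and at -0.65 with GO-203.

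The effect of MYC silencing was taken from tet-MYCshRNA mammospheres, DOX vs. vehicle, and since this comparison chose the set, its values are a description. No p-value is given, and the counts past a threshold are printed for completeness. NTRK3 stood at 0.109 ± 0.0330 CPM with vehicle and 10.7 ± 0.963 CPM with DOX, a log2 fold change of 6.61 ± 0.21 (SE), the 7th highest of 19951 genes. PDGFRA stood at 0.878 ± 0.107 and 7.19 ± 0.116 CPM (3.02 ± 0.15), and NTRK2 at 0.0764 ± 0.0677 and 0.511 ± 0.171 CPM (2.7 ± 0.71). AXL was lower with DOX (188 ± 11.5 and 129 ± 16.4 CPM, log2 fold change -0.56 ± 0.08), as was MET (288 ± 5.16 and 202 ± 7.63 CPM, -0.53 ± 0.06). The log2 fold change was 0.30 ± 0.09 for FGFR1, -0.34 ± 0.26 for FGFR2 and -0.01 ± 0.08 for IGF1R. PDGFRB had 29 counts with DOX and 16 with vehicle, a depth-adjusted ratio of 2.44, and KIT had no count with DOX. An adjusted p of 0.1 was passed by 6 of the 8 receptors in the fit, 4 higher and 2 lower, beside 58.5% of all genes (30.3% higher and 28.1% lower). A log2 fold change above 1.5 was held by 3, beside 7.06% of all genes, and one below -1.5 by none, beside 3.39%. The groups did not overlap for 5 of the 8, beside 59.2% of all genes, and nothing is read from these counts. Of the mesenchymal markers, FN1 averaged 12500 CPM with DOX and 5210 CPM with vehicle, VIM 2220 and 2480 CPM, and CDH2 26.1 and 22.2 CPM. With DOX and vehicle respectively, the summed endothelial markers were 8.73 to 10.3 and 6.34 to 7.27 CPM, those of mast cells and melanocytes 4.71 to 5.46 and 3.26 to 3.99 CPM, and those of leukocytes 0.371 to 0.468 and 0.189 to 0.300 CPM. PECAM1 made up most of the endothelial sum (9.4 and 6.79 CPM), with CDH5 and VWF at or near 0. MLANA made up most of the mast cell and melanocyte sum (4.74 and 3.22 CPM), with PMEL at 0.25 and 0.246 CPM and TPSAB1 and CPA3 at or near 0. The part of these markers was not tested.

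Of 56 other pathway genes in the MYC fit, 32 were higher and 10 lower with DOX past the same threshold, beside 30.3% and 28.1% of all genes. Again nothing is read from the counts. Their median log2 fold change was 0.52, where 0.01 was the median of all genes. Ligands were higher in 8 of 15 cases and lower in 4. BDNF, the TrkB ligand, stood at 37.5 ± 0.935 CPM with vehicle and 87.8 ± 5.61 CPM with DOX, KITLG at 14.8 ± 0.321 and 39.2 ± 1.09 CPM, and PROS1 at 18.7 ± 0.405 and 58.1 ± 1.70 CPM, while FGF1 was lower (8.66 ± 0.680 and 4.27 ± 0.787 CPM). Ligand-binding proteins were higher in 5 of 7 cases and lower in none. IGFBP5 stood at 4.0 ± 0.825 and 90.6 ± 17.3 CPM (log2 fold change 4.49 ± 0.18), IGFBP4 at 68.3 ± 7.09 and 232 ± 32.7 CPM, and IGFBP7 at 0.521 ± 0.0982 and 4.35 ± 0.284 CPM. Of 23 adaptors and regulators, 15 were higher and 3 lower. The neural-type adaptors SHC2 (4.62 ± 0.47 on the log2 scale) and SHC3 (2.48 ± 0.22) and the insulin receptor substrate IRS2 (1.75 ± 0.12) led, and LRIG1, a negative regulator of receptor kinases, was lower (-1.02 ± 0.10). Related receptors were higher in 4 of 11 cases and lower in 3, with IGF2R, which clears IGF-2, at 1.32 ± 0.06 and FGFR4 at -2.52 ± 0.26.

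**Figure D4:**
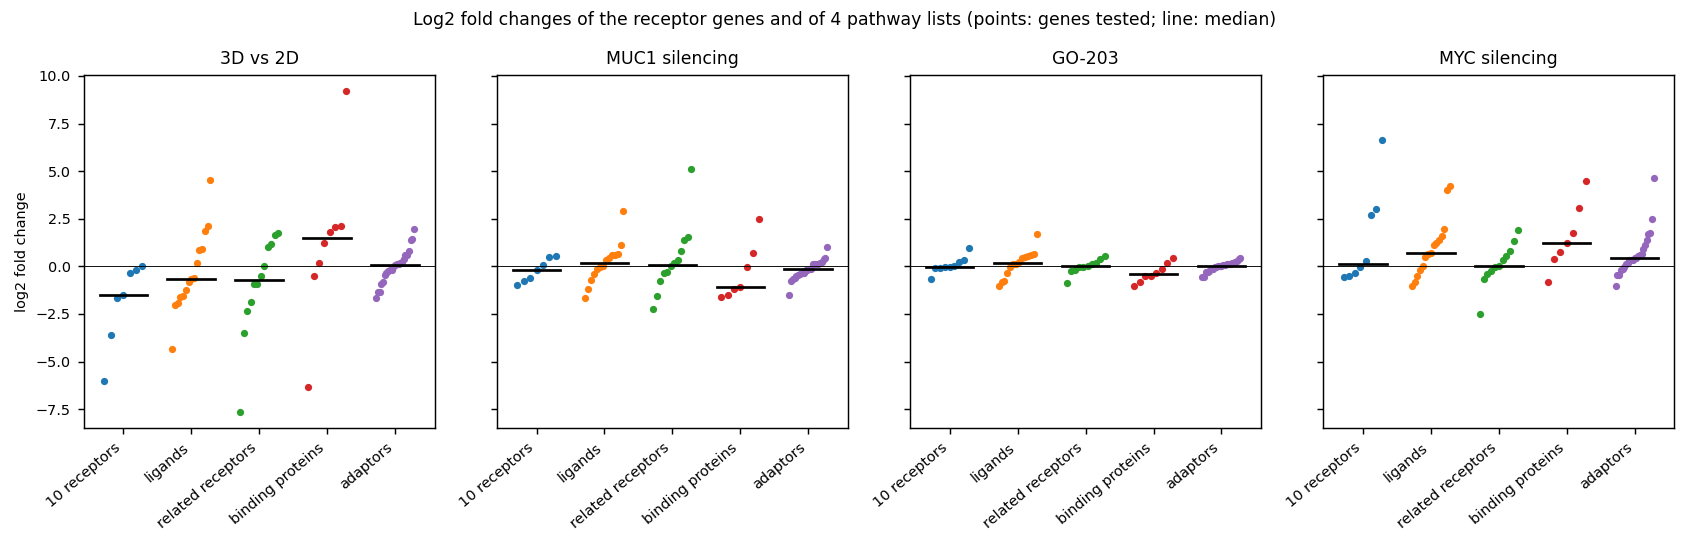
Log2 fold changes of the tested receptor genes and of the tested genes of the 4 pathway lists (points) with the list median (line) in each comparison. The medians of the receptors are -1.5 in 3D vs. 2D cells, -0.21 upon MUC1 silencing, -0.02 with GO-203 and 0.14 upon MYC silencing.

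The genes whose levels ran most like those of each receptor were found by Pearson's r of log2(CPM + 0.5) over the 21 libraries among 13581 genes. These correlations are descriptive, because all libraries come from 1 line and fall into 7 groups. Nearest to NTRK3 were CNTNAP2, a neurexin-family adhesion protein (r = 0.99), the pseudokinase PEAK1 (r = 0.98) and the mesenchymal cadherin CDH11 (r = 0.98). CDH11 averaged 646 CPM in 2D cells, 6.96 CPM in 3D cells, and 3.13 CPM with vehicle and 69.0 CPM with DOX in the tet-MYCshRNA cells. CNTNAP2 averaged 10.5, 0.408, 0.0174 and 4.93 CPM in the same groups. PEAK1 averaged 54.0 CPM in 3D cells, and 44.9 CPM with vehicle and 74.8 CPM with DOX in the tet-MYCshRNA cells, a much narrower range, so that its likeness lies in the order and spacing of the libraries and not in the size of the change. SNED1 was nearest to PDGFRA (r = 0.96), with 68.1 CPM in 2D and 16.5 CPM in 3D cells, and 7.30 CPM with vehicle and 87.9 CPM with DOX in tet-MYCshRNA cells. Nearest to FGFR2 was CFAP58 (r = 0.98), to IGF1R DGKI (r = 0.99), to MET ANKRD29 (r = 0.97), to FGFR1 ARHGEF40 (r = 0.95) and to AXL RFLNB (r = 0.94). Of these, DGKI averaged 15.8 CPM in 2D cells and 1.83 CPM in MUC1-silenced cells, and at most 0.199 CPM in the other groups.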

How the data were processed

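Total RNA from the 21 cultures was made into stranded mRNA libraries. The table deposited by the authors holds unnormalized counts of reads for every gene in every library, aligned to GRCh38, and per the labels' processing notes CASAVA 1.8.2, STAR 2.7.3a and DESeq2 were used. The annotation release, strand setting, and treatment of multimapping reads and of read mates are not given in the sources used here. Of the values from 1 to 10, 70.4% were even, so counting intervals may be too narrow. Cells left blank for whole blocks of libraries (4952 to 7587 genes) were read as 0.

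Counts were fitted per comparison (6 libraries) with edgeR 4.0.16 in R 4.3.3: filterByExpr, TMM factors, glmQLFit and glmQLFTest, Benjamini-Hochberg over all genes tested, threshold 0.1, with 1.5 on the log2 scale as a stricter call. CPM uses TMM factors over all 21 libraries. Exon lengths and positions are from GENCODE 44, and promoter sequences from RefSeq (GRCh38.p14). FGFR1 was not matched. In simulated counts with 200 genes changed by 2 on the log2 scale, 100% were recovered in 3D vs. 2D (19175 genes), MUC1 silencing (19174) and GO-203 (18386), and 99.5% in MYC silencing (19909). The simulated spread was fixed, below the biological coefficient of variation of the MYC comparison (0.127). Only well-counted genes were changed, so recovery of rare receptors and of smaller changes was not tested.

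Replicate libraries differed beyond sampling noise (chi-square per degree of freedom 4.36 to 52.8, the highest, 36.3 and 52.8, being those of tet-MYCshRNA DOX replicate 1 with the other two), and the biological coefficient of variation was 0.0637 to 0.127. The series describes triplicate experiments but the labels do not say how independent they were, so p-values measure the spread between these cultures. With 3 against 3 libraries an exact permutation test cannot go below p = 0.1, and none was used.

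The receptors, lists and tests were chosen with earlier results of these data known. Named were all 10 receptors and, per list and comparison, up to 3 genes that rose most and up to 3 that fell most among those past the threshold, with an absolute log2 fold change above 1 and a mean of at least 1 CPM over the 6 libraries. A result that the rule named is not reported here. For likeness, the rule took 3 genes for NTRK3 and 1 for each other receptor with a mean of at least 1 CPM. Ligands of the named receptors (KITLG, NTF3, BDNF) were also described in comparisons where the rule did not name them. Alternatives were RLE factors, library size alone, 2 other filters, DESeq2 1.42.0, a replicate block, one fit of all 21 libraries, other thresholds, and each library left out in turn.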

Additional observations from a re-analysis of the deposited data

Results flagged for a closer look

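Chosen after the data were seen, the difference between the effects of MUC1 silencing and GO-203 passed edgeR's quasi-likelihood test (adjusted p below 0.1) for 5 receptors, with a log2 difference of 1.22 for MET, 0.59 for IGF1R, -0.24 for FGFR1, -0.65 for AXL and -0.97 for PDGFRA. Cell line and control treatment differed along with the agent, and their part was not tested.

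In the shRNA lines, MET lay on opposite sides of its vehicle group with DOX, with a log2 fold change of 0.56 upon MUC1 silencing and -0.53 upon MYC silencing, and all libraries kept to their side. PDGFRB had a log2 fold change of -0.60 upon MUC1 silencing and a log2 ratio of mean CPM of 1.34 upon MYC silencing, at most 0.465 CPM in any library. Neither difference between the lines was tested, because the MYC comparison was used to choose the receptors.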

How the results depend on the processing

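Requiring a log2 fold change past 1.5 in either direction left 21 other pathway genes in 3D vs. 2D cells (all genes: 6.9% higher and 9.29% lower). Upon MUC1 silencing it left 0 receptors and 10 pathway genes (5.74% and 3.08%), and with GO-203 0 receptors and 1 pathway gene (0.498% and 0.26%). Upon MYC silencing it left 3 receptors and 13 pathway genes (7.06% and 3.39%), a description from which nothing is read. With 1 library left out, the calls were 1 to 2 receptors and 14 to 21 other pathway genes with GO-203. Small values changed sign without passing the test on either side. FGFR1 in 3D vs. 2D cells ran from -0.02 to 0.05 with 1 library left out, and was -0.02 with at least 10 counts in every library, -0.05 with library size alone and -0.02 without 2D replicate 3. FGFR2 upon MUC1 silencing ran from -0.05, without vehicle replicate 1, to 0.17. With GO-203, PDGFRA ran from -0.15 to 0.07 (0.07 and 0.03 without 3D replicate 1 or 2, 0.04 and 0.02 without GO-203 replicate 1 or 2), PDGFRB from -0.22 to 0.34 (0.34 without 3D replicate 3, 0.08 without GO-203 replicate 2) and IGF1R from -0.16 to 0.02, the latter without 3D replicate 2. IGF1R upon MYC silencing was 0.01 in one fit of all libraries and from -0.04 to 0.02 with 1 library left out (0.02 without DOX replicate 3). Causes were not tested. The replicate numbers did not pair the samples (correlations of same-numbered deviations from -0.175 to 0.08). With them as a replicate block the receptors passing were 6, 5 and 2 in 3D vs. 2D, MUC1 silencing and GO-203, as without the block. Depth limited PDGFRB, NTRK2 and KIT, and NTRK3 upon MUC1 silencing.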
